A study of Mus musculus with 4 samples.

Results

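Tetraspanin transcripts were measured by RNA-seq in sorted CD4+CD25+ spleen cells of mice aged 7 weeks, of WT or Ikzf2-/- (Helios KO) genotype, with 2 libraries per genotype. Regulatory T cells (Tregs) are commonly sorted by CD4 and CD25, but activated conventional CD4+ T cells can carry both as well. Ikzf2 encodes Helios, a zinc finger transcription factor of the Ikaros family, and the labels give neither the exons that the null allele lacks nor the strain or sex of the mice. Members of the family were taken by gene name, as every gene called Tspan followed by a number together with Cd9, Cd37, Cd53, Cd63, Cd81, Cd82, Cd151 and Upk1b. This rule gave 28 of the 16383 genes of the table, and the same 28 genes match it in the GENCODE M21 annotation of mm10. Of these, 19 reached a value of 10 in 2 or more of the 4 libraries and were tested among 11571 such genes.

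Tetraspanins are small proteins that cross the membrane several times and carry a large extracellular loop held by disulphide bonds. They bind each other and partner proteins sideways in the membrane, and so gather integrins, immunoglobulin superfamily receptors, proteases and signalling molecules into shared patches. In lymphocytes they are known for tuning adhesion, migration and antigen receptor signalling, and several of them are carried on exosomes.

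Levels are given in the authors' unit, normalised reads per kb of the median transcript, and recovered reads per library ranged from 42157138 to 52543073. Ikzf2 itself was at 5282 and 7864 in the WT libraries and at 4396 and 3104 in Helios KO replicates 1 and 2, with an adjusted p of 1.00 in limma. The knockout libraries thus lay below the WT libraries but retained Ikzf2 reads, which a whole-gene value cannot assign to exons. The T cell identity markers were high throughout, with Cd4 between 36704 and 43526, and Foxp3 was between 25224 and 41264. Helios KO replicate 2 stood apart. Summed markers of red pulp macrophages were at 60707 there against 6277 to 7990 in the other libraries, and neutrophil markers at 35325 against 33.7 to 134. The values of the knockout libraries are therefore given separately. In bulk RNA, fewer cells of a type and less RNA per cell cannot be told apart.

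The WT cells carried a tetraspanin repertoire dominated by a few members, most but not all of them leukocyte surface tetraspanins. Of the 28 genes, 5 had a WT mean above 10000, 6 lay between 1000 and 10000, 6 between 100 and 1000, 1 between 10 and 100 and 10 under 10. In order of the WT level the first 8 were Cd82, Tspan32, Cd53, Cd37, Tspan13, Cd81, Tspan31 and Cd9, and together they made up 94.3% of the summed family level in each WT library, 94.7% in Helios KO replicate 1 and 92.9% in replicate 2. Neighbours in this order had WT ranges that did not touch as far down as Cd9, which overlapped with Tspan14. The ranges of Tspan9 and Cd151 overlapped too, as did those of most neighbours from Cd63 downwards, at WT means under 10. The order rests on the authors' use of the median transcript length, which for Tspan31 is 453 bases although its longest annotated transcript has 1556.

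**Figure D1:**
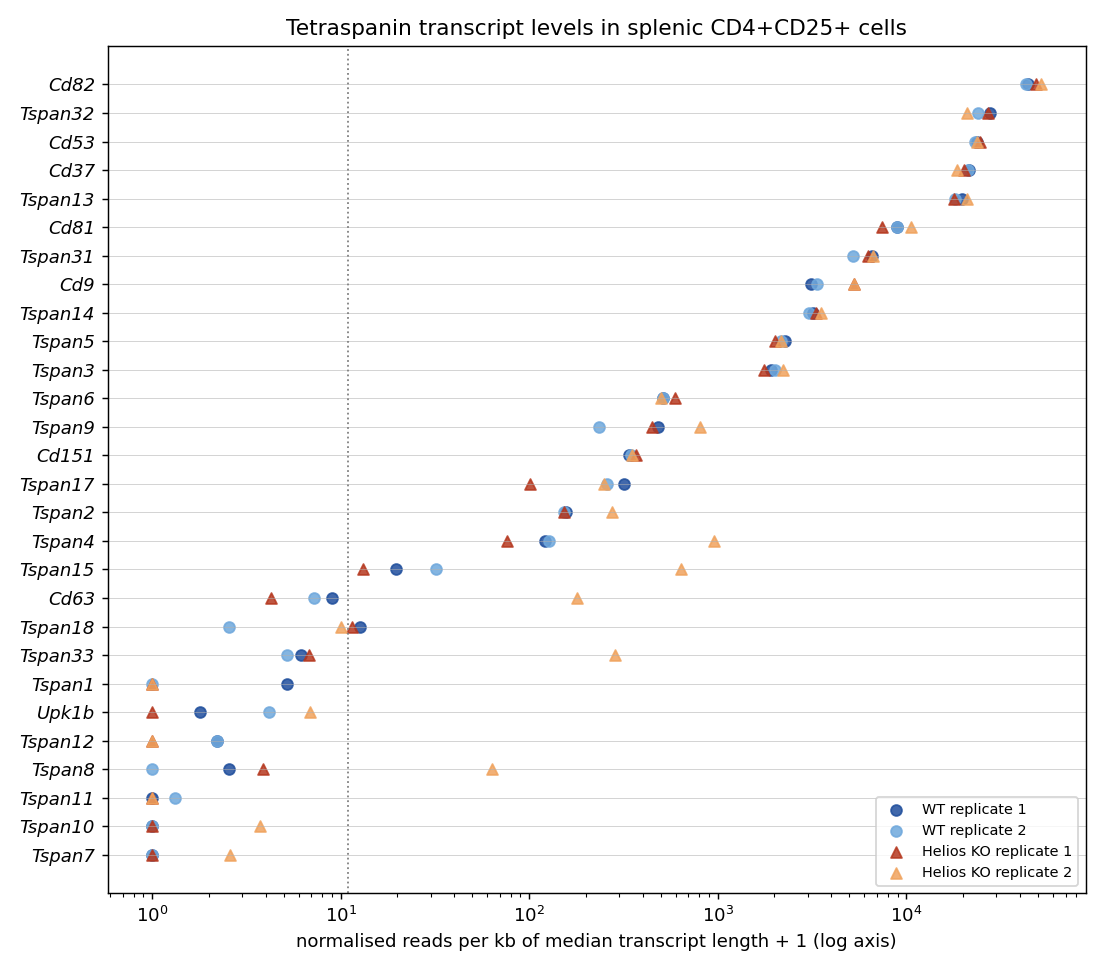
Level of each of the 28 tetraspanins in each library (horizontal log axis: normalised reads per kb, plus 1), ordered by the WT mean. Circles are WT and triangles Helios KO libraries, and the dotted line marks the value of 10 used as a filter. The levels ran from 51911 for Cd82 to 0, and the points of Helios KO replicate 2 stood far to the right for Tspan33, Tspan15, Cd63, Tspan8 and Tspan4.

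No tetraspanin passed the test for a difference between the genotypes. Of the 19 tested members, 0 were called at an adjusted p under 0.05 in limma, as were 0% of all genes tested, and limma-voom on the recovered reads also called 0. Cd9 alone had an unadjusted p under 0.05 (0.000480 in limma), as did 386 genes or 3.34% of all tested, against 392 genes in limma-voom. Both knockout libraries lay above both WT libraries for 5 members (Cd9, Cd82, Cd53, Tspan14 and Cd151), against 12.5% of all genes tested. Both lay below for 2 members (Cd37 and Tspan17), against 15.7% of all genes, and 12 members overlapped, against 71.8% of all genes. The median log2 fold change was 0.09 over the 19 members and -0.0014 over all genes. With median ratios or recovered read totals as the scaling, Cd151 overlapped and Tspan5 lay below both WT libraries, while the other 6 genes stayed on their sides. With only 2 libraries per genotype, an exact permutation test of a single gene cannot give a two-sided p below 0.333.

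**Figure D2:**
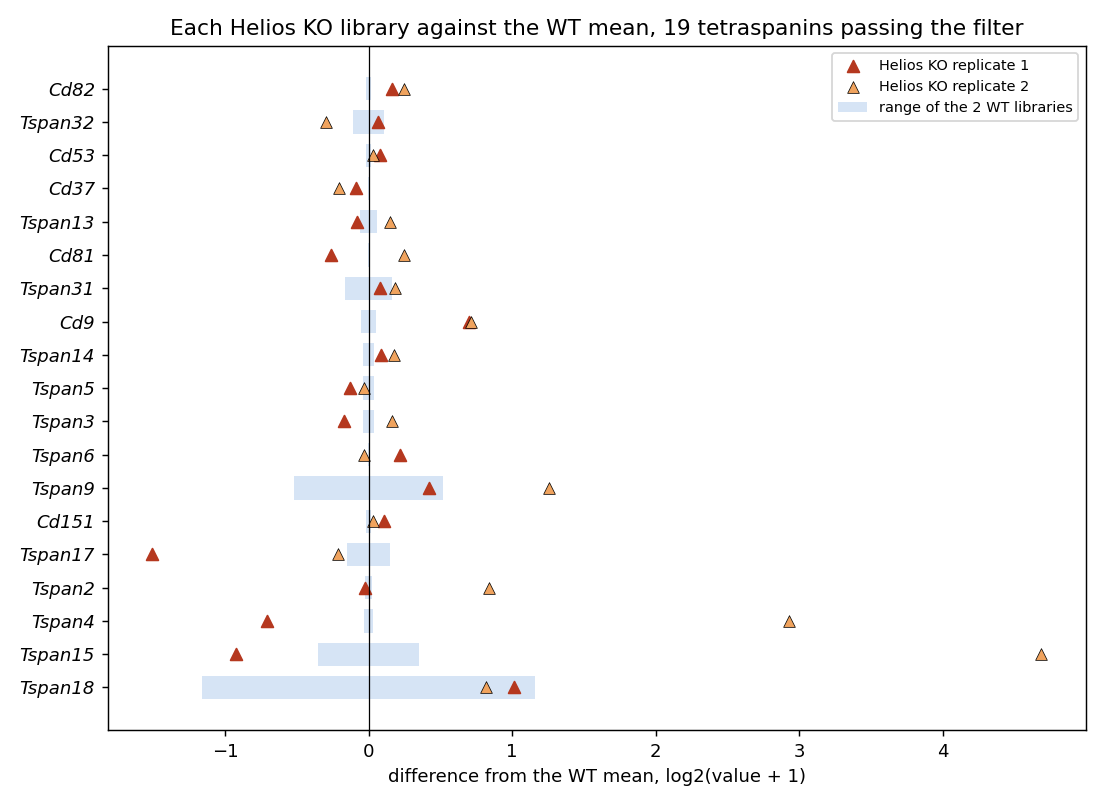
Difference of each Helios KO library from the WT mean on the log2(value + 1) scale for the 19 tetraspanins that passed the filter, ordered by the WT level. Shaded bars span the 2 WT libraries. Cd9 sat at 0.70 and 0.72 in the knockout libraries, outside its WT bar, whereas Tspan4 and Tspan15 lay on opposite sides of 0 in the knockout libraries.

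Cd9 was the member that differed by the most relative to its spread. Cd9 encodes a surface tetraspanin of leukocytes and platelets that associates with integrins and immunoglobulin superfamily partners (ENSMUSG00000030342, chromosome 6, 125460266 to 125494791, minus strand, mm10). It was at 3122 and 3351 in the WT libraries and at 5255 and 5317 in Helios KO replicates 1 and 2, from 3002, 3237, 4125 and 4857 recovered reads. The genotypes did not overlap and the knockout libraries were nearly equal. The mean was 3236 ± 162 for WT and 5286 ± 44.1 for Helios KO (SD, n = 2 each), a ratio of 1.63. The log2 fold change was 0.71 (SE 0.09), with a 95% interval of 0.47 to 0.95 in limma.

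Cd9 held rank 13 of 11571 by p, and its adjusted p of 0.427 in limma did not pass. The difference from the WT mean was 0.70 in Helios KO replicate 1 alone (adjusted p = 0.111 in limma) and 0.72 in replicate 2 alone (adjusted p = 0.0208 in limma), each time with the single knockout library taken to vary as much as the rest. Cd9 is a known platelet protein, and the summed level of 7 platelet and megakaryocyte markers was 194 and 182 in WT, 143 in Helios KO replicate 1 and 2223 in replicate 2. Among these markers Gp1bb was at 0 in both WT libraries and below 1 in the knockout libraries. Most of the sum in WT and in replicate 1 was Itga2b, at 173 and 150.3 in WT and at 97.8 in replicate 1. Pf4 (8.41 against 4.57 and 2.28), Gp9 (7.84 against 0 and 2.12) and Treml1 (2.83 against 0.771 and 0.767) were higher in replicate 1 than in both WT libraries, all at low levels. The remaining markers of the list are not given singly. Of the list, 3 markers passed the filter, and Pf4, Gp9 and Treml1 were not among them. All 3 overlapped between the genotypes, as did 71.8% of all genes tested. The median log2 difference of these 3 markers from the WT mean was 0.16 in replicate 1 and 3.24 in replicate 2. The part of the Cd9 values that came from platelets, or from other cell types whose markers were high in replicate 2, was not tested. A processed pseudogene, Cd9-ps, is 91.1% identical to Cd9 over 665 bases. Gm26728, which is 100% identical over 218 bases, overlaps the Cd9 locus itself over 368 bases on the opposite strand. Stretches of several expressed genes are at least 90% identical to Cd9 over at least 200 bases. The authors' handling of shared reads is not given in the sources used here. An annotated antisense gene Gm28809 overlaps the Cd9 locus over 3316 bases on the opposite strand, and these libraries do not mark strand.

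Cd81, which like Cd9 binds the immunoglobulin superfamily protein EWI-2, did not separate the genotypes (ENSMUSG00000037706, chromosome 7, 143052739 to 143067934). Cd81 was at 8896 and 8953 in WT, at 7450 in Helios KO replicate 1 and at 10590 in replicate 2. The knockout libraries thus lay on either side of a tight WT pair. The log2 fold change was -0.0067 (SE 0.18), with a 95% interval of -0.47 to 0.45 in limma, and the knockout libraries differed from the WT mean by -0.26 and 0.25.

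The promoters of Cd9, which lay higher in both knockout libraries, and of Cd81, which did not, are printed for comparison of their letters, and each gene has a single start in the RefSeq table (GRCm38.p6). Each window holds 250 bases before and 50 after the start, written 5′ to 3′ on the strand of the gene. Capitals mark GGGAA or, for the other strand, TTCCC, the core that Ikaros family zinc fingers are known to bind. Cd9 is at chr6:125494711-125495010 (minus strand) and Cd81 at chr7:143052500-143052799 (plus strand).
Cd9: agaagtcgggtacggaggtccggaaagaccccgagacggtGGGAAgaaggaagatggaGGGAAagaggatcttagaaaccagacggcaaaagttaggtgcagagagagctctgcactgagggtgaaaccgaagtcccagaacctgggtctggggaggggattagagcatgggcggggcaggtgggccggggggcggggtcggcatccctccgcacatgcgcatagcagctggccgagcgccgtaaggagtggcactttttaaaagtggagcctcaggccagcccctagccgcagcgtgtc
Cd81: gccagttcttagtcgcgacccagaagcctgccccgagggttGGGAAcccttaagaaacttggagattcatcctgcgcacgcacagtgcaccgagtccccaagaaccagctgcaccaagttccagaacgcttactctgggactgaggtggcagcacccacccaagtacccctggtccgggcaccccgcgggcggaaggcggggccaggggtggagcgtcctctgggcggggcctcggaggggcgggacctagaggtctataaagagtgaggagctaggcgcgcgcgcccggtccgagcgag

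The Cd9 window holds 2 matches and the Cd81 window 1. Of all 32851 promoter windows in the table, 62.7% hold at least 1 match on either strand, and of the 36 windows of the 26 tetraspanins found there 25 (69.4%) do. A match is a description of these letters and not a binding site. Whether the number of matches goes with the genotype values was not tested.

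Cd82 had the highest tetraspanin level in the authors' unit and lay slightly higher in both knockout libraries. Per kb of the longest transcript, the WT mean of Cd82 was 17497, below the 23366 of Cd53. Cd82 encodes a surface tetraspanin first known as a suppressor of metastasis and also as a costimulatory molecule of T cells (ENSMUSG00000027215, chromosome 2, 93419111 to 93463140). It was at 44389 and 43169 in WT against 49057 and 51911 in the Helios KO libraries. The genotypes did not overlap, and the ratio of 1.15 was small. The log2 fold change of 0.21 (SE 0.10) had a 95% interval of -0.039 to 0.45 and an adjusted p of 1.00 in limma.

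Cd53 and Cd37, a pair of tetraspanins expressed mainly by leukocytes, lay on opposite sides by small amounts. Cd53, known for holding L-selectin at the lymphocyte surface (ENSMUSG00000040747, chromosome 3, 106759921 to 106790149), was at 23691 and 23041 in WT against 24693 and 23869 in the Helios KO libraries. Cd37, known for restraining T cell proliferation and for supporting integrin function (ENSMUSG00000030798, chromosome 7, 45233632 to 45239115), was at 21561 and 21378 in WT against 20184 and 18604 in the Helios KO libraries. On the log2 scale Cd53 differed by 0.06 (SE 0.09) and Cd37 by -0.15 (SE 0.10), both with an adjusted p of 1.00 in limma. The 95% intervals were -0.18 to 0.29 for Cd53 and -0.39 to 0.10 for Cd37.

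Tspan32, also called Phemx or Tssc6, is a tetraspanin of blood cells that restrains T cell responses in mice (ENSMUSG00000000244, chromosome 7, 143005046 to 143019644). It was at 27885 and 24003 in WT against 27057 and 21061 in Helios KO replicates 1 and 2. The genotypes overlapped, with the lowest value in replicate 2. The difference from the WT mean was 0.06 in replicate 1 and -0.30 in replicate 2. Foxp3 and Il2ra were also lowest in that library, at 25224 and 26759.

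Cd151, a partner of laminin-binding integrins (ENSMUSG00000025510, chromosome 7, 141467392 to 141471473), was low and nearly equal in all libraries. Cd151 was at 338 and 348 in WT against 369 and 351 in the Helios KO libraries, a log2 fold change of 0.07 (SE 0.16). The knockout libraries lay above WT by less than 1 SE.

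**Figure D3:**
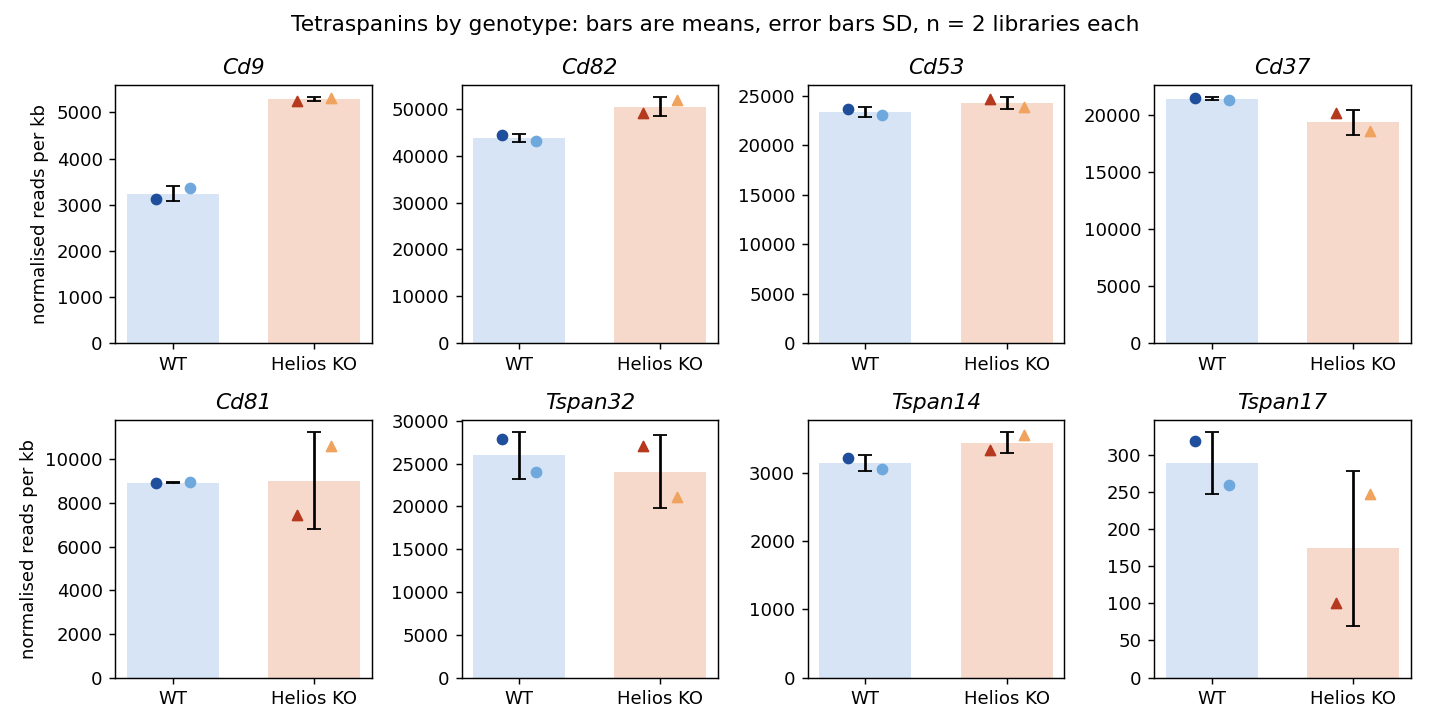
Levels of 8 tetraspanins by genotype in normalised reads per kb on linear axes from 0. Bars are means, error bars SD of 2 libraries, circles WT and triangles Helios KO libraries (replicate 1 dark, replicate 2 light). Both knockout points of Cd9 lay above its WT points without passing the test over all genes, whereas the Cd81 points of the knockout libraries sat on either side of WT.

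The TspanC8 members are tetraspanins that escort the protease Adam10 to the cell surface and steer it towards different substrates. Of these 6 genes, Tspan14 and Tspan5 had the highest levels in the authors' unit, and Tspan17 was lower. Tspan15, Tspan33 and Tspan10 were near or under the filter in 3 or more libraries. The place of Tspan5 depended on the length used, as its median transcript has 885 bases and its longest 6653. Per kb of the longest transcript, the WT means were 3139 for Tspan14, 295 for Tspan5 and 130 for Tspan17. Tspan14 (ENSMUSG00000037824, chromosome 14) was at 3223 and 3060 in WT against 3334 and 3552 in the Helios KO libraries, and Tspan5 (ENSMUSG00000028152, chromosome 3) at 2280 and 2155 in WT against 2024 and 2171 in the Helios KO libraries. Tspan14 did not overlap between genotypes, with a log2 difference of 0.13 (SE 0.10), and Tspan5 did, with -0.08 (SE 0.10).

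Tspan17 (ENSMUSG00000025875, chromosome 13, 54789377 to 54796776) had the most negative fold change of the tested members. Tspan17 was at 318 and 259 in WT, at 100.3 in Helios KO replicate 1 and at 247 in replicate 2, from 241, 197, 62 and 178 recovered reads. Both knockout libraries lay below WT, but replicate 2 only just. The log2 fold change of -0.86 (SE 0.47) had an adjusted p of 1.00 in limma, and the difference from the WT mean was -1.51 in replicate 1 and -0.21 in replicate 2.

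Adam10 itself, shown as the direct partner and chosen with its values seen, was at 8013 and 7545 in WT against 7308 and 7688 in the Helios KO libraries. Of 13 genes of the Adam10 axis, including its relatives Adam17 and Adam9 and known substrates, 3 lay above and 2 below WT in both knockout libraries, against 12.5% and 15.7% of all genes tested, and 0 were called. Their median log2 fold change was 0.03. The smallest p belonged to Lag3, an inhibitory receptor that Adam10 and Adam17 shed, at 269 and 487 in WT against 513 and 653 in the Helios KO libraries. The next belonged to Adam9, at 139 and 155 in WT against 156 and 298 in the Helios KO libraries.

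Tspan13 and Tspan31 are less studied members that resemble each other in sequence. Tspan13 (ENSMUSG00000020577, chromosome 12, 36014557 to 36042500) was at 19803 and 18225 in WT against 17962 and 21106 in the Helios KO libraries. The knockout libraries bracketed WT, with a log2 difference of 0.04 (SE 0.12) and differences of -0.08 and 0.15. Tspan31 (ENSMUSG00000006736, chromosome 10, 127067280 to 127070264) was at 6618 and 5251 in WT against 6239 and 6685 in the Helios KO libraries and overlapped. It shares 641 bases with Cdk4, a cell cycle kinase gene on the opposite strand that was at 10987 to 12597. The libraries carry no strand information, so that reads from that stretch cannot be assigned to either gene, and the Tspan31 level is uncertain.

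Tspan3 and Tspan6 did not separate the genotypes. Tspan3, a widely expressed tetraspanin, was at 1922 and 2019 in WT against 1753 and 2207 in the Helios KO libraries, a log2 difference of -0.0022 (SE 0.14). Tspan6, on the X chromosome, was at 511 and 510 in WT against 595 and 499 in the Helios KO libraries, a log2 difference of 0.09 (SE 0.16). Both genes had knockout values on either side of WT.

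A further set of members was high in Helios KO replicate 2 only. Of the 28 tetraspanins, 5 (17.9%) had a value of at least 10 there and at least 4-fold above the highest of the other 3 libraries, against 5.65% of all 16383 genes. These were Tspan33, Tspan15, Cd63, Tspan8 and Tspan4. Tspan33, a TspanC8 member known from red cell precursors, B cells and macrophages, was at 284 in that library and between 4.22 and 5.78 in the others, from 572 reads against 9 to 11. Tspan15, another TspanC8 member, was at 642 against 12.2 to 30.9. Both lay far above the highest other library, Tspan33 by 49.2-fold and Tspan15 by 20.8-fold.

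Cd63, which marks late endosomes and exosomes, was at 179 in Helios KO replicate 2 and between 3.28 and 8.04 in the other libraries, from 190 reads against 3 to 9. The level outside replicate 2 was therefore at the edge of detection for a gene used widely as a vesicle marker. The transcribed pseudogene Cd63-ps is 98.0% identical to Cd63 over 858 bases. How such reads were handled is not given in the sources used here, so the low level of Cd63 is uncertain.

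Tspan4, known from macrophages for building migrasomes on retraction fibres, was at 950 in Helios KO replicate 2, at 121 and 127 in WT and at 75.6 in replicate 1. It lies 3766 bases past the end of Cd151 on chromosome 7, with 1 protein-coding gene between them, and shares 292 bases with Chid1 on the opposite strand. Tspan8, an epithelial tetraspanin, had 76 reads in replicate 2 against 0 to 3 in the others.

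Markers of other blood cells moved with these 5 genes. In Helios KO replicate 2, 8 of 9 red pulp macrophage markers, 6 of 8 monocyte and dendritic cell markers, 8 of 8 neutrophil markers, 6 of 6 erythroid markers and 5 of 7 platelet and megakaryocyte markers passed the same 4-fold rule, as did 3 of 4 plasma cell, 5 of 8 NK and cytotoxic cell, 5 of 6 mast cell and basophil and 1 of 7 B cell markers. Summed monocyte and dendritic cell markers were at 26626 there and at 767 to 1195 in the other libraries, and erythroid markers at 12248 against 145 to 583. The neutrophil genes Mpo and Elane were at 0 in both WT libraries and at 5023 and 1029.9 in Helios KO replicate 2. Of 7 stroma and endothelium markers 1 passed the rule, and none of 7 T cell identity markers did. The part of these cells in the tetraspanin values of that library was not tested.

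**Figure D4:**
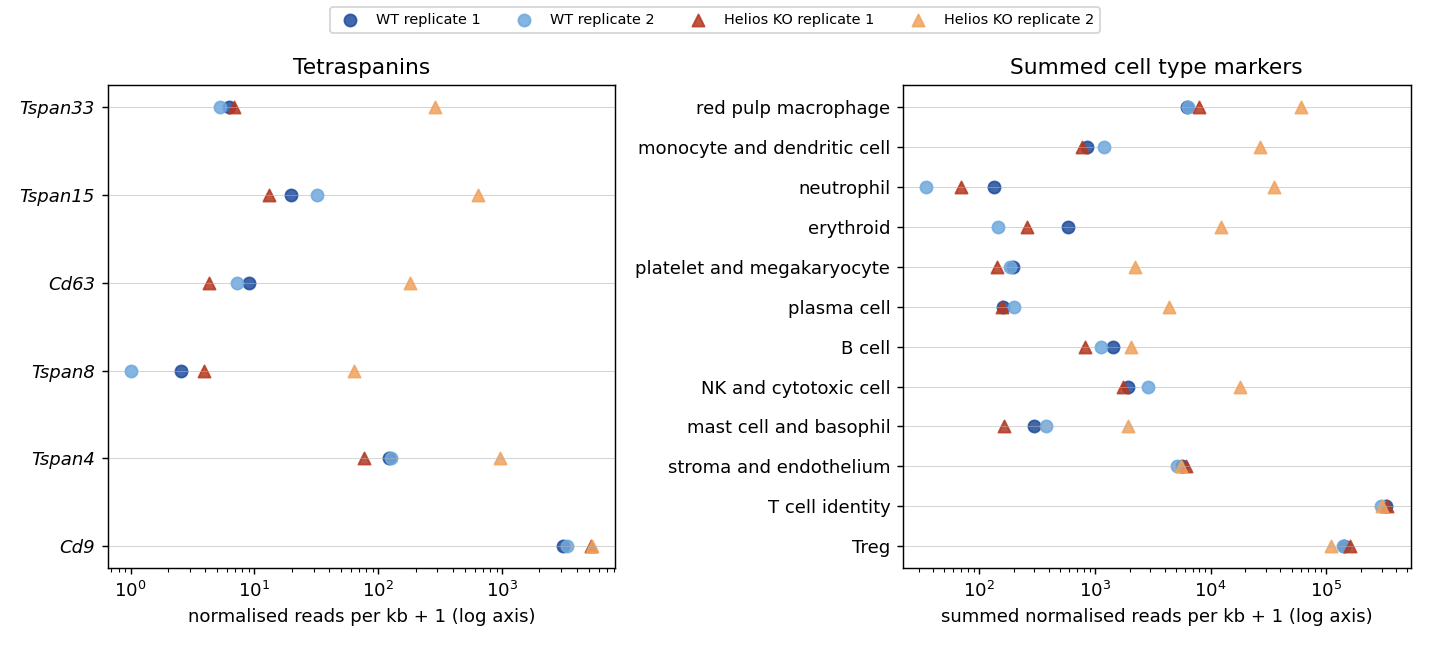
Left, levels of 5 tetraspanins high in Helios KO replicate 2 and of Cd9 (log axis, normalised reads per kb plus 1). Right, summed levels of marker lists for cell types in the same units. The light triangle of replicate 2 lay far to the right for the 5 genes. It did so too for the red pulp macrophage, monocyte, neutrophil, erythroid, platelet, plasma cell, NK and mast cell sums. For Cd9 both triangles lay together, and the part of other cells in its values was not tested.

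Tspan15 and Tspan4 were tested as members that passed the filter, and their direction rested on a single library. Tspan4 differed from the WT mean by -0.70 in Helios KO replicate 1 and by 2.93 in replicate 2, and Tspan15 by -0.93 and 4.68. With replicate 2 as the only knockout library both were called higher in limma (adjusted p = 0.000285 for Tspan4 and 0.000436 for Tspan15), and 6.4% of all genes were called in that fit. With replicate 1 as the only knockout library 0 members were called, and 0.277% of all genes were.

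Tspan9, Tspan2 and Tspan18 also varied by library. Tspan9, a tetraspanin of platelets, was at 480 and 233 in WT against 449 and 802 in Helios KO replicates 1 and 2. The WT libraries alone spanned more than 1 unit on the log2 scale, and the log2 fold change of 0.84 (SE 0.50) was not called. Tspan2 was at 157 and 152 in WT, at 151 in replicate 1 and at 276 in replicate 2. Tspan18, known in endothelial cells for regulating calcium entry, was at 11.7 and 1.56 in WT against 10.5 and 9.05 in the Helios KO libraries, too low to compare with 2 to 15 reads per library.

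**Figure D5:**
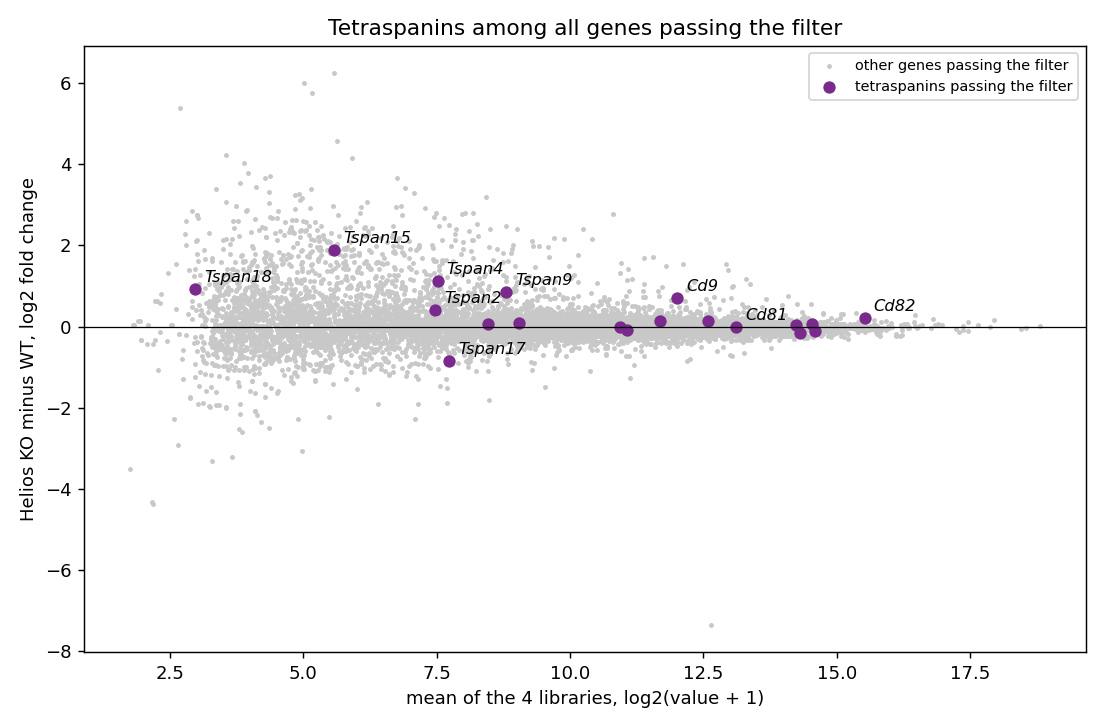
Log2 fold change (Helios KO minus WT, vertical axis) against the mean log2(value + 1) of the 4 libraries (horizontal axis) for the 11571 genes that passed the filter, with tetraspanins in purple. Cd9 lay at 0.71 among genes of high level, where most genes were close to 0, and Tspan15 and Tspan4 lay at 1.88 and 1.11 among genes of lower level, where the spread was wide.

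The remaining members were at or near 0. Tspan1, Tspan10, Tspan11, Tspan12 and Upk1b, known mostly from epithelia, eye, vessel or bladder tissue, had at most 7 reads in any library. Tspan7 had 11 reads in Helios KO replicate 2 and 0 in the other libraries. Together with Cd63, Tspan8 and Tspan33 these are the 9 members that did not pass the filter. Of the tetraspanins outside the naming rule, Upk1a was between 9.75 and 21.2.

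Several members lie near each other in the genome. Tspan32 and Cd81 are separated by 33094 bases on chromosome 7, with no protein-coding gene between them, and both were high with overlapping genotypes. Tspan18 and Cd82 are separated by 84605 bases on chromosome 2, again with no protein-coding gene between them. In the authors' unit they stood at the opposite ends of the range of tested levels. Tspan11 and Tspan9 are separated by 7418 bases on chromosome 6, where Tspan11 had at most 1 read. Cd9 lies 2392797 bases before Tspan11 on that chromosome.

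Genes known to work with tetraspanins were examined as lists, and 0 members of any list were called. Beside the counts below, 12.5% of all genes tested lay above and 15.7% below WT in both knockout libraries, and the median log2 fold change of all genes was -0.0014. Of 10 integrin chains bound by tetraspanins, 2 lay above and 2 below, and the median log2 fold change was -0.02. Itgb2, the beta chain of LFA-1, was at 21589 and 20704 in WT against 23978 and 24747 in the Helios KO libraries (log2 fold change 0.20, SE 0.09), and Itgb1, the beta chain of the laminin and fibronectin receptors, had 0.19 (SE 0.11). Both beta chains lay above WT by small amounts.

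Of 14 immunoglobulin superfamily and other surface partners, 4 lay above and 2 below (12.5% and 15.7% of all genes), and the median log2 fold change was 0.20. Igsf8, which encodes the Cd9 and Cd81 partner EWI-2 and was chosen with its values seen along with Ptgfrn, was at 1426 and 1338 in WT against 1459.9 and 1724 in the Helios KO libraries. Its relative Ptgfrn was low, between 23.0 and 32.2. The smallest p belonged to Igsf3, at 128 and 124 in WT against 86.8 and 83.8 in the Helios KO libraries (log2 fold change -0.55, SE 0.26), and then to Cd47, the integrin-associated protein, at 0.19 (SE 0.09).

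Of 14 tested genes of endosomal sorting and exosome release, 2 lay above and 3 below (12.5% and 15.7% of all genes), with a median log2 fold change of 0.04. Ap3b1, a subunit of the adaptor complex that carries Cd63 to lysosomes, was at 23471 and 23387 in WT against 19320 and 19486 in the Helios KO libraries. The pairs did not overlap, and the log2 fold change was -0.27 (SE 0.09, adjusted p = 1.00 in limma). Rab27a, a GTPase of vesicle release, was at 2037 and 1990 in WT against 1813 and 1683 in the Helios KO libraries. These values lay lower in both knockout libraries without passing the test.

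Of 14 membrane linkers and signalling partners, 2 lay above and 1 below (12.5% and 15.7% of all genes), with a median log2 fold change at 0.00. Zdhhc2, a palmitoyltransferase known to act on Cd9 and Cd151, was at 1581 and 1521 in WT against 1238 and 1168 in the Helios KO libraries (log2 fold change -0.37, SE 0.11, adjusted p = 1.00 in limma). Ifitm3, an interferon-induced membrane protein, was at 190 and 188 in WT, at 423 in Helios KO replicate 1 and at 2655 in replicate 2.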

How the data were processed

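RNA from sorted cells (5 ng) was amplified with SMART-Seq v4 and made into Nextera XT libraries, per the labels' protocols, a preparation that does not mark strand. The tool bcl2fastq 2.17.1.14 and the build mm10 are named in the submitters' processing notes. The aligner, the counter and the normalisation method are not stated in what was used here. The deposited signal is the authors' normalised read number per kb of median transcript length. Multiplied by length and divided by the library's step, 97.2% of 58026 values above 0 were whole reads within 0.01 read. Tspan4 was not, so its reads are not printed.

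Log2(value + 1) was tested with limma 3.58.1 (R 4.3.3, trend and robust, two-sided) and Benjamini-Hochberg adjustment over 11571 genes with at least 10 in at least 2 libraries. A fold change on this scale understates the change of low genes. Every tested tetraspanin is named, and from each partner list the 2 genes with the smallest p. The members and lists were chosen with earlier results of these data known. Nothing in the labels says that the 2 libraries of a genotype came from separate mice, and a p-value here therefore reflects the spread among these libraries alone, which may be technical. The replicates differed beyond counting noise (chi-square per degree of freedom 37.4 in WT and 126 in Helios KO). Alternatives were other scalings, pseudocounts, filters and length, limma-voom on recovered reads, a replicate block, quality weights and each library left out. Quality weights, the side counts under other settings and the longest transcript length were chosen after seeing the data. All 16383 genes matched GENCODE M21, and 26 of 28 tetraspanins matched the RefSeq promoters, leaving out Tspan18 and Upk1b.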

Additional observations from a re-analysis of the deposited data

How the results depend on the processing

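Outside the fits that leave out a library, 168 of 169 alternative results kept their direction and their side of the threshold, and the exception was Tspan3, whose log2 fold change was 0.0012 under limma-voom on recovered reads. With each library left out in turn, the number of genes called ranged from 0 to 741 and the number of tetraspanins called from 0 to 3 (Cd9, Tspan4 and Tspan15 without Helios KO replicate 1), the lone library being assumed to vary like the others. Members with all knockout libraries above WT ranged from 5 to 13 of 19 and below WT from 2 to 9, while over all genes tested these shares ranged from 26.2% to 36.6% and from 28.6% to 36.2%, against 12.5% and 15.7% with all libraries. The log2 fold change of Cd9 ranged from 0.66 to 0.76. Those that changed sign were Tspan13 (-0.081 to 0.15), Tspan31 (-0.035 to 0.30), Tspan3 (-0.17 to 0.16), Tspan18 (-0.24 to 2.07), Cd81 (-0.26 to 0.25), Tspan6 (-0.033 to 0.22), Tspan32 (-0.30 to 0.065), Tspan2 (-0.025 to 0.84), Tspan4 (-0.70 to 2.93) and Tspan15 (-0.93 to 4.68). The replicate numbers gave no sign of pairing beyond a correlation of 0.106 over 11571 genes, and with 2 pairs they count as numbers only. With the replicate number as a block, 0 genes and 0 tetraspanins were called, and the log2 fold change of Cd9 was 0.71 (adjusted p = 1.00 in limma). Over all alternatives the adjusted p of Cd9 ranged from 0.0208 to 1.00. Depth limits the members with under about 20 reads.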

Other observations

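Dividing by the longest annotated transcript in place of the median changed the order of the tetraspanins in WT. Cd53 then came first, followed by Cd82, Tspan32, Cd37, Tspan13, Cd81, Tspan14 and Cd9, and Tspan31 moved from rank 7 to rank 9.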
